A study of Mus musculus with 38 samples.

Results

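The 7 genes described here encode the core of antigen presentation by major histocompatibility complex (MHC) class II in the mouse: the invariant chain Cd74, the transactivator Ciita, the classical chains H2-Aa, H2-Ab1 and H2-Eb1, and the peptide-loading chains H2-DMa and H2-DMb1. They were taken by symbol from the 45706 gene identifiers of the deposited count tables, and all 7 were found. The group was selected on counts and CPM by genotype, stimulus and time in these same libraries, whose responses were already known, so the members' values are given as a description, without p-values.

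Class II molecules are heterodimers of an alpha and a beta chain that show peptides from the endocytic route to CD4 T cells. The invariant chain assembles with new class II dimers in the endoplasmic reticulum, fills their groove and directs them to endosomes, where H2-DM exchanges its last fragment, CLIP, for peptide. Transcription depends on Ciita, a coactivator that does not itself bind DNA and docks on the RFX complex, CREB1 and NF-Y at the X and Y boxes of these promoters. Professional antigen-presenting cells hold Ciita on, while fibroblasts are known to gain it mainly under interferon gamma, with IRF1 among the factors required. Free invariant chain at the cell surface also serves as a receptor for the cytokine MIF.

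The cells were primary mouse embryonic fibroblasts of C57BL/6 background, either wild type (WT) or homozygous for a knock-in allele of the NF-kB subunit RelA that is named RelA-TA-KI; the labels do not spell out TA. All cultures, untreated ones included, had been starved overnight at 0.5% bovine calf serum. TNF was given at 10 ng/ml, LPS at 100 ng/ml and Poly(I:C), a double-stranded RNA mimic, at 20 ug/ml, each for 0.5, 1, 3 or 8 h. The TNF series held 20 libraries (2 genotypes, 5 times including untreated, 2 replicates each), and the LPS and Poly(I:C) series held 18 further libraries, 1 per genotype and condition, with its own untreated pair.

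The X and Y boxes are shown for 2 classical chain genes, since they are the docking platform of Ciita. The 150 bases before the RefSeq start (build GRCm38.p6, 5′ to 3′ on the gene's strand) are printed for H2-Aa at chr17:34287824-34287973 (minus strand) and H2-Eb1 at chr17:34305717-34305866 (plus strand), with matches to the Y box (ATTGG), the X1 core (GCAACNG) and the X2 core (TGACG), searched on both strands, in capitals:
H2-Aa: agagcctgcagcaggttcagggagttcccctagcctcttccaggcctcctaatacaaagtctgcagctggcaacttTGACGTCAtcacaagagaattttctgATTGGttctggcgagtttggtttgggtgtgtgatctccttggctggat
H2-Eb1: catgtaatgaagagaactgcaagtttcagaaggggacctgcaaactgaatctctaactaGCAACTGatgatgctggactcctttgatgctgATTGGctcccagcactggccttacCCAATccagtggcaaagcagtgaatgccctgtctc

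In H2-Aa the X2 core began 74 bases and the Y box 48 bases before the start, and the X2 letters matched on both strands in overlapping positions. In H2-Eb1 the X1 core began 91 bases and the Y box 59 bases before the start, with a second Y box on the reverse strand at 35 bases. A search for the kappa-B motif of NF-kB (GGG, 5 bases of any kind, CC) matched GGGAGTTCCC at 131 bases in H2-Aa, on both strands, and in H2-Eb1 a reverse-strand match at 43 bases overlapped the second Y box. Short letter strings are common: of 32851 mouse promoter windows of this length, 24.5% held ATTGG, 13.3% TGACG, 6.51% GCAACNG and 35.4% the kappa-B motif on either strand. A pair of GAAA blocks with 2 bases between them, bound by interferon regulatory factors, was in neither window (1.59% of all windows).

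Depth ran from 6.72 to 9.59 M counts per library in the TNF series and from 7.02 to 9.43 M in the other, and levels are given in CPM (counts scaled to library size with TMM factors). Fibroblast markers such as Col1a1 summed to 18840 to 65910 CPM in every library. Macrophage and myeloid markers were present too: 20 genes, among them Lyz2, Csf1r and C1qa, summed to 1151 to 4775 CPM in the TNF libraries and 3917 to 6467 CPM in the LPS and Poly(I:C) libraries. Class II genes are expressed by such cells, and fewer cells of a type cannot be told apart from less RNA per cell in bulk libraries. Of the other class II-bearing types, 8 dendritic cell markers summed to 4.12 to 18.1 CPM in the TNF libraries and 3.57 to 19.7 CPM in the others. Within that list Cd209a was at 0 counts in all 38 libraries and Flt3 in 35, whereas Itgax reached 17 counts, Ccr7 36, and Zbtb46 had 17 to 161 counts. A list of 5 B cell markers summed to at most 1.41 CPM in the TNF libraries and at most 26.2 CPM in the others, with Pax5 at up to 161 counts. The part of these cells in the results was not tested. Sex-linked transcripts differed between libraries: WT replicate 2 of the TNF series had 2.32 to 3.89 CPM of Xist and 128 to 160 CPM of Ddx3y, whereas the remaining TNF libraries of either genotype had 337 to 517 CPM of Xist and at most 0.675 CPM of Ddx3y. In the other series RelA-TA-KI libraries had 127 to 183 CPM of Ddx3y and at most 1.48 CPM of Xist, and WT libraries had both (55.8 to 98.2 and 251 to 437 CPM). Rela mRNA was read in every library (61.6 to 306 CPM), which does not check the allele.

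Cd74 (ENSMUSG00000024610.12, chr18:60803848-60812646, plus strand, 1410 bases of exon in the files' mm10 gene model) reached the highest level per kilobase of exon among the 7 genes. Untreated WT cells had 7 and 11 counts in replicates 1 and 2, equal to 1.06 CPM (SD 0.0665, n = 2). After TNF the WT counts were 5 and 8 at 0.5 h, 10 and 14 at 1 h, 30 and 76 at 3 h, and 103 and 192 at 8 h. Both WT libraries at 3 h and both at 8 h lay above every earlier WT library. The mean level was 6.29 CPM at 3 h (SD 2.64, n = 2) and 18.6 CPM at 8 h (SD 7.73, n = 2).

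RelA-TA-KI cells gave no such course for Cd74. Untreated replicates had 5 and 11 counts (0.943 CPM, SD 0.467, n = 2). After TNF the counts were 0 and 8 at 0.5 h, 3 and 1 at 1 h, 3 and 5 at 3 h, and 4 and 10 at 8 h, so no treated RelA-TA-KI library exceeded the higher untreated one. The level at 8 h was 0.813 CPM (SD 0.440, n = 2). Untreated cells of the genotypes overlapped, and at 3 and 8 h they did not, with 2 libraries per group. The share of all genes with such a separation was not counted.

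**Figure D1:**
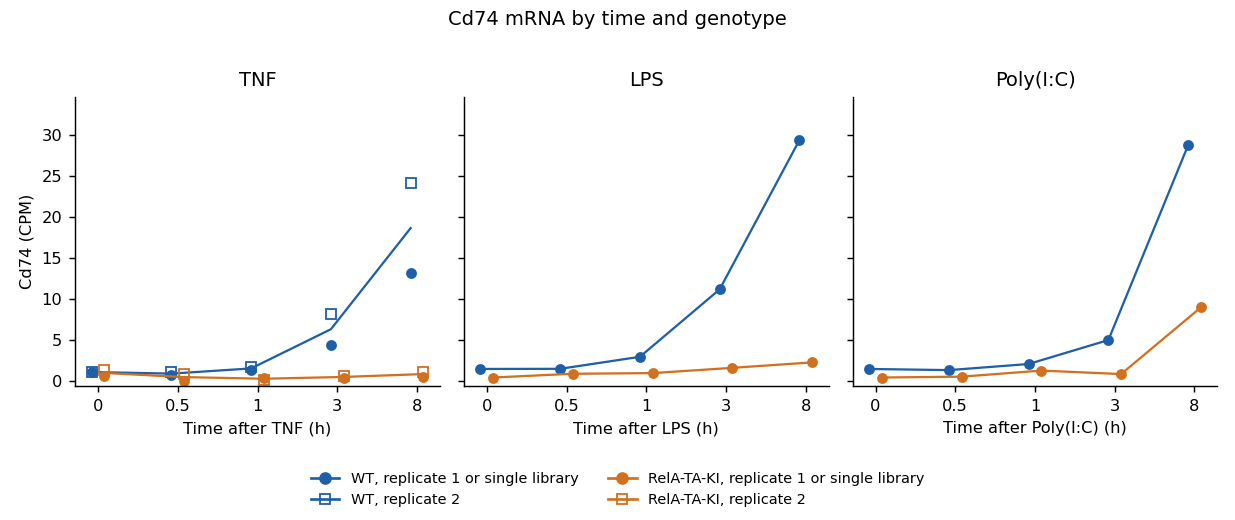
Cd74 level (CPM) by time after TNF, LPS or Poly(I:C) in WT and RelA-TA-KI fibroblasts; points are libraries, lines join means, and times are evenly spaced rather than to scale. WT reached 18.6 CPM at 8 h of TNF, 29.4 of LPS and 28.8 of Poly(I:C), and RelA-TA-KI reached 0.813, 2.24 and 8.95 CPM.

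In summed reads, Cd74 in WT cells was 17.5-fold above untreated at 8 h of TNF (95% binomial interval 10.9 to 29.9; such intervals cover counting error only). The RelA-TA-KI ratio at that time was 0.872 (0.394 to 1.91). WT exceeded RelA-TA-KI 14.2-fold at 3 h (6.95 to 33.8) and 22.5-fold at 8 h (13.2 to 41.7). WT replicate 1, which had the Xist pattern of the RelA-TA-KI libraries, held 13.2 CPM at 8 h, against 0.502 and 1.12 CPM in RelA-TA-KI. Without WT replicate 2 at 8 h the difference of responses was -3.80 and was not called.

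In the edgeR quasi-likelihood fit over all 20 TNF libraries, the log2 fold change of Cd74 was 2.57 (SE 0.57) at 3 h and 4.11 (SE 0.53) at 8 h in WT, and -1.02 (SE 0.87) and -0.20 (SE 0.78) in RelA-TA-KI. The difference of the responses (RelA-TA-KI minus WT) was -3.58 (SE 1.05) at 3 h and -4.30 (SE 0.98) at 8 h. Untreated cells differed by -0.16 (SE 0.74).

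Of the 7 members, 4 passed the filter on low counts in the TNF table (Cd74, H2-Ab1, H2-DMa and H2-DMb1), each compared among 13843 genes. The members were chosen from these same counts, so their calls, here and below, describe the fits and are no independent test. Cd74 was the 1 member called higher in WT at 3 h, where 9.32% of all genes tested were, and at 8 h, where 12.0% were. No member was called in RelA-TA-KI at 3 h (10.9% of genes higher, 8.08% lower) or at 8 h (21.6% higher, 20.5% lower). The difference of responses was called lower for Cd74 at 8 h (3.42% of genes) and for no member at 3 h (0.73%), and the direct genotype difference was called lower for Cd74 at 3 h (-3.75, SE 0.65; 2.4% of genes) and 8 h (-4.47, SE 0.55; 8.11%). With the replicate number as a block within genotype, the 3 h difference of responses for Cd74 was -3.61 (SE 0.75) and passed the threshold. Leaving out any of 4 single libraries (RelA-TA-KI 8 h replicate 1, RelA-TA-KI untreated replicate 2, WT 8 h replicate 2 or WT untreated replicate 1) ended the call of the 8 h difference, with the value between -5.01 and -3.69 over all 14 settings tried. The WT call at 3 h was lost without WT 3 h replicate 2 (2.04) and without WT untreated replicate 2 (2.65).

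Cd74 in WT was also higher after LPS and Poly(I:C). Untreated WT cells of that series had 16 counts (1.43 CPM). LPS gave 14, 25, 73 and 171 counts at 0.5, 1, 3 and 8 h, and Poly(I:C) gave 13, 16, 39 and 195. The levels at 8 h were 29.4 CPM with LPS and 28.8 CPM with Poly(I:C), which are 20.5-fold (12.3 to 36.7) and 20.1-fold (12.0 to 35.8) above untreated.

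In RelA-TA-KI cells the same conditions separated the agents. Untreated cells had 4 counts of Cd74 (0.391 CPM), LPS gave 8, 9, 11 and 14 counts, and Poly(I:C) gave 5, 11, 7 and 57. The 8 h level was 2.24 CPM with LPS and 8.95 CPM with Poly(I:C). Relative to its untreated library this was 5.71-fold with LPS (1.80 to 23.8) and 22.9-fold with Poly(I:C) (8.46 to 86.8), both resting on the 4 untreated reads. WT stood above RelA-TA-KI 13.1-fold at 8 h of LPS (7.62 to 24.5) and 3.21-fold at 8 h of Poly(I:C) (2.38 to 4.39), intervals that do not overlap. Both libraries stand alone in their condition, so the difference between the agents has no replicate check. Before treatment the genotypes of this series already differed, at 1.43 CPM in WT and 0.391 CPM in RelA-TA-KI. That gap, resting on the 4 RelA-TA-KI reads, was about as large as at 8 h of Poly(I:C).

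At earlier times WT had more Cd74 reads than RelA-TA-KI in every condition of that series, untreated cells included. The ratio was 3.66 untreated (1.18 to 15.1), 7.10 at 3 h of LPS (3.74 to 14.8) and 6.12 at 3 h of Poly(I:C) (2.71 to 16.2). The intervals included 1 at 0.5 h of LPS (1.71, 0.671 to 4.71) and at 0.5 h (2.62, 0.877 to 9.39) and 1 h (1.65, 0.720 to 3.94) of Poly(I:C). The genotype difference shared by the 9 conditions was -2.11 on the log2 scale (SE 0.28, edgeR, 12752 genes tested), -1.23 over the untreated, 0.5 and 1 h conditions alone and -2.58 over the 3 and 8 h conditions alone. Cd74, H2-DMa and H2-DMb1 were the 3 members that passed the filter there, and Cd74 was called lower, as were 8.21% of genes.

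Over the 28 groups of both series the order of Cd74 levels was led by WT at 8 h of LPS, of Poly(I:C) and of TNF (20.8, 20.4 and 13.2 CPM per kb of exon). The TNF replicates stood at 13.2 and 24.1 CPM, and the gap from the upper one to 28.8 CPM with Poly(I:C) is smaller than the spread between them. WT at 3 h of LPS followed with 11.2 CPM, then RelA-TA-KI at 8 h of Poly(I:C) with 8.95 CPM, and WT at 3 h of TNF, whose replicates of 4.42 and 8.16 CPM also span WT at 3 h of Poly(I:C) with 4.96 CPM. Every other group lay at or below 2.92 CPM, and RelA-TA-KI at 1 h of TNF was lowest with 0.241 CPM (SD 0.170, n = 2). The series were deposited and scaled as separate tables, so an order across them is approximate.

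Macrophage markers moved differently from Cd74. In WT cells their summed level was 1268 to 1986 CPM untreated and 1539 to 2484 CPM at 8 h of TNF, and in RelA-TA-KI cells 1702 to 2872 and 2529 to 4775 CPM. The RelA-TA-KI libraries at 8 h, low in Cd74, thus had the higher marker sums. By edgeR, 2 of the 20 markers (Cd14 and Msr1) rose in WT at 8 h and 3 in RelA-TA-KI (Cd14 by 2.95, Msr1 by 1.91 and Lyz2 by 1.07 on the log2 scale), with list medians of 0.07 and 0.46. The difference of responses was called for 0 of the 20, with 1 at an unadjusted p under 0.05 and 0 by DESeq2. Over all genes 12.0% rose in WT and 21.6% in RelA-TA-KI. With the block within genotype, 4 rose and 4 fell in WT, 15 rose and 3 fell in RelA-TA-KI, and the difference was called for 11, 10 of them higher in RelA-TA-KI. That fit called 4534 of all 13843 genes in WT, 7375 in RelA-TA-KI and 2941 for the difference (1582 higher). Per 1000 CPM of these markers, Cd74 was 0.558 to 0.800 CPM in untreated WT, 3.69 to 4.11 at 3 h and 8.56 to 9.70 at 8 h of TNF. In RelA-TA-KI it was 0.360 to 0.443 untreated and 0.199 to 0.235 at 8 h. The replicate spread of Cd74 at 8 h in WT, 13.2 against 24.1 CPM, shrank to 8.56 against 9.70 on this scale.

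The same scale gave 4.84 for WT and 0.384 for RelA-TA-KI at 8 h of LPS, and 5.34 and 1.38 at 8 h of Poly(I:C). Untreated libraries of that series gave 0.299 and 0.0924. Across its 9 conditions, 5 of the 20 markers were called lower in RelA-TA-KI and none higher. Over all 12752 genes tested, 1047 were lower and 977 higher. Csf1r stood at -0.50 and Lyz2 at -0.36 on the log2 scale, with a list median of -0.09. All 20 markers were tested, and the cell type in which Cd74 rose was not tested.

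**Figure D2:**
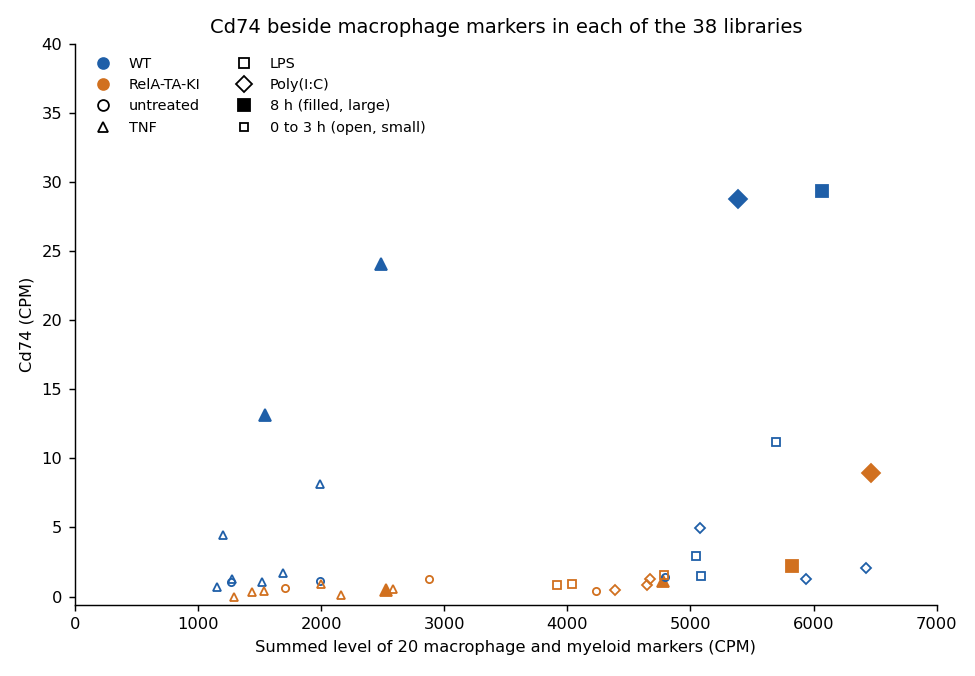
Cd74 level against the summed level of 20 macrophage and myeloid markers (both CPM) in all 38 libraries; colour marks genotype, shape marks the agent, and large filled points are 8 h. WT libraries at 8 h stand at 13.2 to 29.4 CPM of Cd74 over marker sums of 1539 to 6070 CPM, above RelA-TA-KI libraries of equal or higher marker sums.

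Ciita (ENSMUSG00000022504.9, chr16:10488178-10527564, plus strand, 5254 bases of exon) was near the limit of detection and peaked at 3 h, earlier than Cd74. In the TNF series it had 0 counts in 12 of 20 libraries and did not pass the filter. WT replicates had 5 and 9 counts at 3 h of TNF, 2 and 3 at 8 h, and 0 in both untreated libraries. RelA-TA-KI libraries had 0 counts at 3 h and 8 h and never more than 1. At 3 h the 14 WT reads were at least 4.88-fold above untreated WT and at least 5.00-fold above RelA-TA-KI, with a floor of 3 counts over each group at 0.

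With LPS at 3 h Ciita had 36 counts in WT (5.50 CPM) against 1 untreated, and 15 in RelA-TA-KI (2.14 CPM) against 2. WT was 2.57-fold above RelA-TA-KI (1.37 to 5.05). With Poly(I:C) at 3 h the counts were 39 in WT (4.96 CPM) and 44 in RelA-TA-KI (5.10 CPM), a ratio of 0.974 (0.616 to 1.53). By 8 h they had dropped to 6 and 4 with LPS and to 13 and 4 with Poly(I:C), where the ratio of 3.05 has an interval of 0.943 to 12.8. Ciita thus differed between genotypes at 3 h of LPS beyond counting error and did not at 3 h of Poly(I:C), where a WT excess above 1.53-fold lies outside the interval. Ciita shares exon bases with Dexi on the opposite strand, which was read at 6.91 to 15.2 CPM in all 38 libraries, and the strand setting of the counting is not given in the sources used here.

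Irf1, a transcription factor that binds the interferon-responsive promoter of Ciita, rose in both genotypes after TNF and less in RelA-TA-KI. The WT mean was 23.7 CPM untreated, 521 CPM at 1 h (SD 61.7, n = 2) and 207 CPM at 8 h (SD 36.1, n = 2), and the RelA-TA-KI mean was 26.1, 39.3 and 47.5 CPM. Its responses differed by -1.86 at 3 h (SE 0.24, adjusted p = 0.0013) and by -2.25 at 8 h (SE 0.24, adjusted p = 0.00016; edgeR, Benjamini-Hochberg over all genes). At 3 h of LPS Irf1 stood at 892 CPM in WT against 725 in RelA-TA-KI, and at 3 h of Poly(I:C) at 682 against 802 CPM. Ifng, the gene of interferon gamma, had 0 counts in all 38 libraries.

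**Figure D3:**
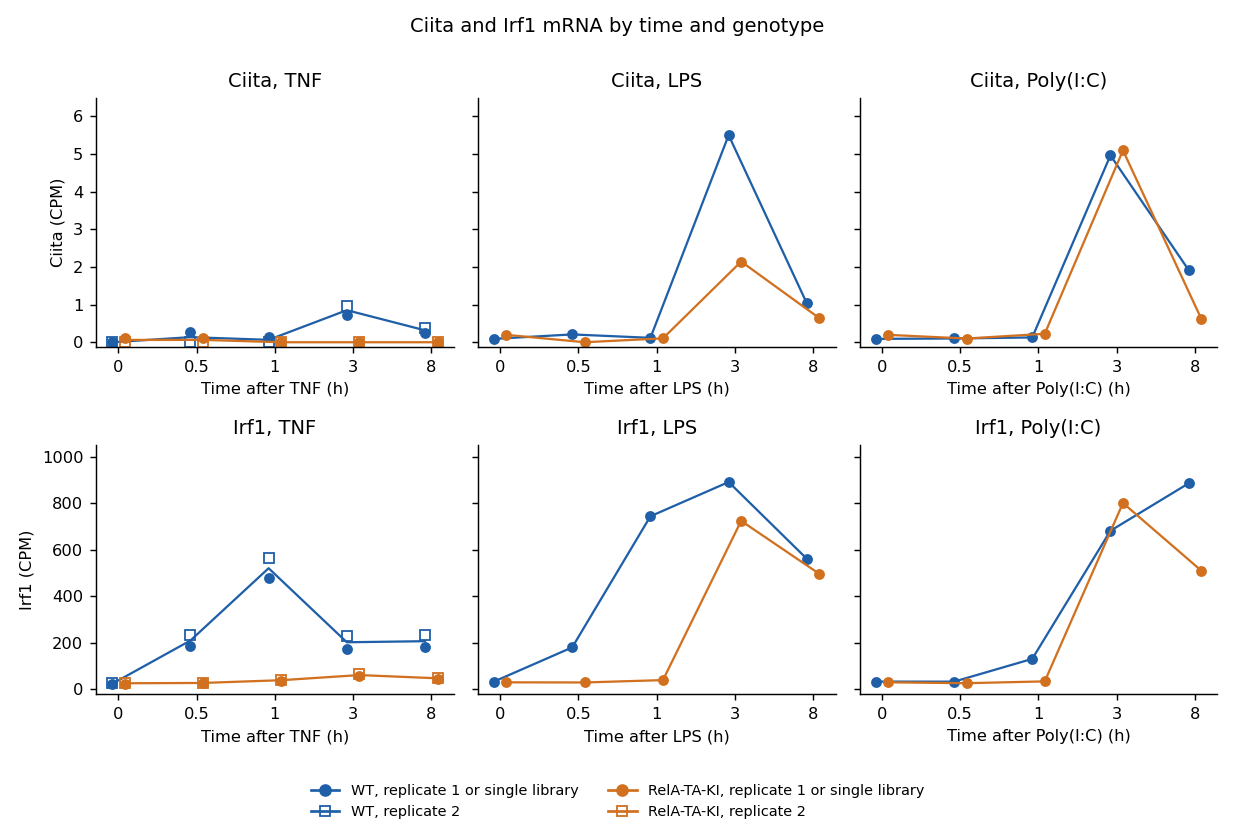
Ciita (upper row) and Irf1 (lower row) levels in CPM by time after TNF, LPS and Poly(I:C); points are libraries, lines join means, colour marks genotype, and times are evenly spaced. Ciita peaked at 3 h in each agent's WT course, and in RelA-TA-KI it stayed at 0 counts at 3 h of TNF but reached 5.10 CPM at 3 h of Poly(I:C).

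The classical chains were scarce, with their highest counts mostly at 8 h. H2-Aa (ENSMUSG00000036594.12, chr17:34282744-34287827, minus strand) encodes the A alpha chain. It had 3 and 13 counts at 8 h of TNF in WT, 1 and 2 untreated, and 0 to 3 in every RelA-TA-KI library of the TNF series. WT at 8 h was 5.69-fold above untreated (1.63 to 30.5) and 17.1-fold above RelA-TA-KI (2.66 to 717), with 13 of its 16 reads in replicate 2; without that library, the 3 counts of replicate 1 equal the highest RelA-TA-KI count.

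H2-Aa behaved otherwise with Poly(I:C). At 8 h it had 12 counts in WT against 0 untreated, at least 6.58-fold, and 19 in RelA-TA-KI against 1 (30.5-fold, 4.85 to 1267). The WT to RelA-TA-KI ratio was 0.593 (0.263 to 1.29). With LPS it had 7 counts in WT at 8 h, at least 4.47-fold above 0 untreated, and 5 in RelA-TA-KI (0.799 CPM), a ratio of 1.51 (0.411 to 6.01). No other library of that series had more than 2 counts.

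H2-Ab1 (ENSMUSG00000073421.5, chr17:34263209-34269418, plus strand) encodes the A beta chain, partner of H2-Aa. In the TNF series it ranged from 8 to 23 counts in WT and 5 to 17 in RelA-TA-KI. In CPM both WT libraries lay above both RelA-TA-KI libraries untreated, at 0.5 h and at 3 h, and the genotypes overlapped at 1 h and 8 h. RelA-TA-KI differed from WT by -0.66 (SE 0.50) untreated, -0.74 (SE 0.50) at 0.5 h and -1.03 (SE 0.52) at 3 h on the log2 scale. None of these was called, and the share of all genes with such a separation was not counted. Its log2 change at 8 h was 0.59 (SE 0.44) in WT and 0.71 (SE 0.49) in RelA-TA-KI, and the difference of responses was 0.11 (SE 0.65). With LPS at 8 h H2-Ab1 had 30 counts in WT against 3 untreated (19.2-fold, 5.96 to 98.2) and 10 in RelA-TA-KI against 1 (16.3-fold, 2.32 to 709). WT exceeded RelA-TA-KI 3.23-fold (1.54 to 7.40). With Poly(I:C) at 8 h there were 14 and 15 counts, 2.06 and 2.36 CPM, a ratio of 0.876 (0.392 to 1.95).

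H2-Eb1 (ENSMUSG00000060586.10, chr17:34305877-34316199, plus strand) encodes the E beta chain; its alpha partner is annotated in these tables as the pseudogene H2-Ea-ps, which had 0 counts in all 38 libraries. H2-Eb1 itself ranged from 1 to 11 counts in the TNF series and from 1 to 10 in the other. WT had 4 and 11 counts at 8 h of TNF and RelA-TA-KI 2 and 4, a ratio of 2.67 (0.979 to 8.40). Its highest count outside TNF was 10 in RelA-TA-KI at 8 h of Poly(I:C), against 4 in WT (WT to RelA-TA-KI 0.376, 0.0860 to 1.30) and 4 in untreated RelA-TA-KI (4.01-fold, 1.16 to 17.5). Its near relative H2-Eb2 had 0 counts throughout.

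The H2-DM genes were read in every library. H2-DMa (ENSMUSG00000037649.9, chr17:34135182-34139101, plus strand) had 17 to 41 counts in the TNF series, a median of 3.17 CPM (1.91 to 4.75). Its log2 change at 8 h of TNF was -0.00 (SE 0.32) in WT and -0.66 (SE 0.35) in RelA-TA-KI, a value that was -1.10 and passed the threshold only without RelA-TA-KI untreated replicate 1. With LPS at 8 h H2-DMa reached 6.18 CPM in WT, 2.23-fold above untreated (1.34 to 3.72), and 6.55 CPM in RelA-TA-KI, 2.31-fold (1.4 to 3.85). The genotypes stood at a ratio of 0.944 there (0.586 to 1.51). The counts were 36 against 31 untreated in WT and 41 against 29 in RelA-TA-KI. Each fold thus rested largely on the scaling of the libraries, TMM factors included: 3 counts equalled 0.269 CPM in untreated WT and 0.515 CPM in WT at 8 h of LPS.

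H2-DMb1 (ENSMUSG00000079547.3, chr17:34153072-34160230, plus strand) had 11 to 23 counts in the TNF series, a median of 1.80 CPM, and 12 to 30 counts in the other, a median of 2.81 CPM. Its log2 change at 8 h of TNF was 0.19 (SE 0.32) in WT and -0.01 (SE 0.31) in RelA-TA-KI. The genotype difference shared by the LPS and Poly(I:C) conditions was 0.03 (SE 0.13) for H2-DMb1 and -0.06 (SE 0.11) for H2-DMa, against -2.11 for Cd74. H2-DMb2, a close copy of H2-DMb1, had 0 to 3 counts, and reads that fit both copies may be split or lost, so values of H2-DMb1 and of H2-Eb1 are uncertain to that extent.

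**Figure D4:**
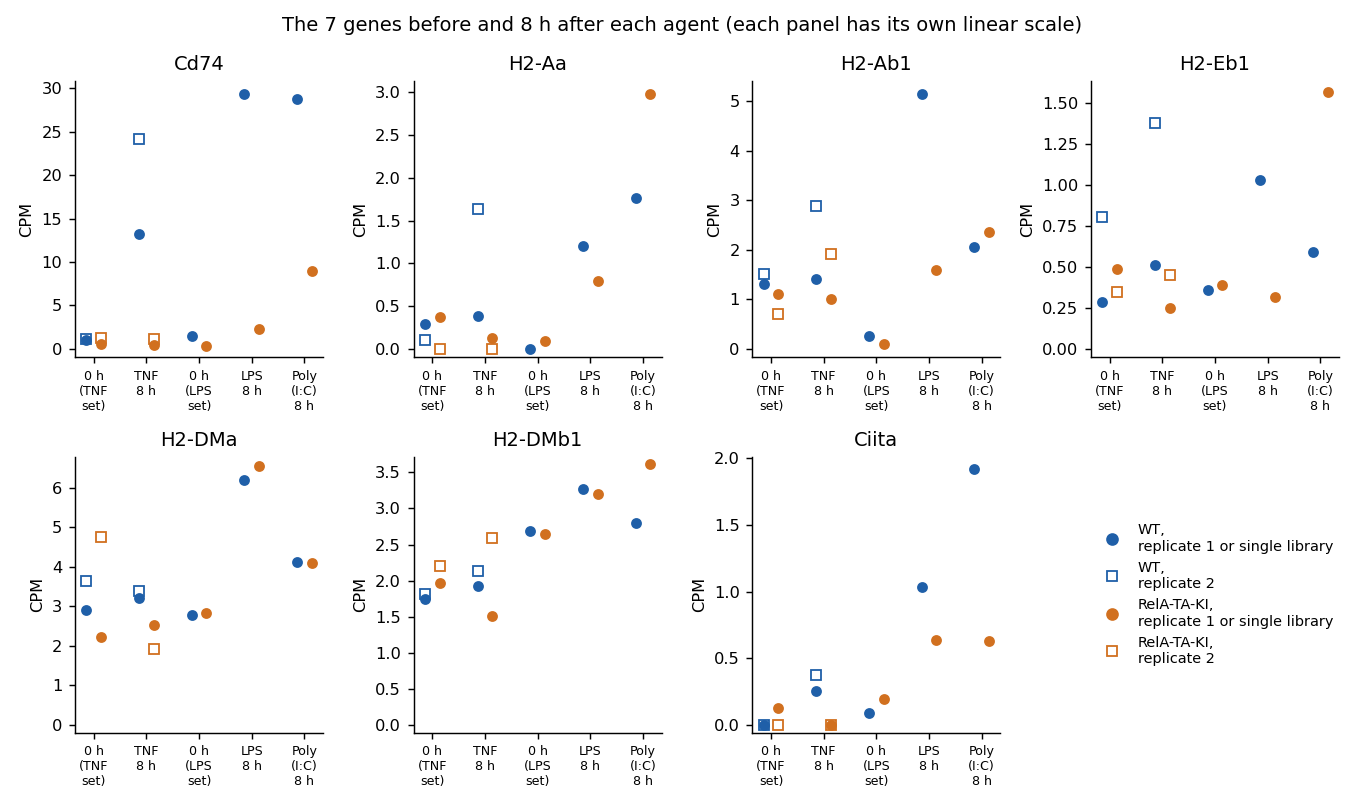
CPM of each of the 7 members in untreated cells and at 8 h of TNF, LPS and Poly(I:C), each panel on its own linear scale; points are libraries and colour marks genotype. Cd74 separates the genotypes at 8 h of all agents, and already in the untreated pair of the LPS and Poly(I:C) series (1.43 CPM in WT, 0.391 in RelA-TA-KI). H2-Aa, H2-Ab1 and H2-Eb1 have RelA-TA-KI values at 8 h of Poly(I:C) at or above the WT values (2.98, 2.36 and 1.57 against 1.77, 2.06 and 0.590 CPM).

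By size alone, with a log2 ratio of at least 1 and at least 20 counts in 1 of the 2 libraries, RelA-TA-KI was below WT for Cd74 at 1 h of LPS (2.14% of all genes met that rule), for Cd74 and Ciita at 3 h (3.73%) and for Cd74 and H2-Ab1 at 8 h (5.25%). With Poly(I:C) it was Cd74 at 3 h (1.63%) and 8 h (4.54%). Against untreated WT cells, Cd74 and Ciita rose past that size at 3 h of LPS (12.4% of genes) and of Poly(I:C) (6.83%), Cd74, H2-Ab1 and H2-DMa at 8 h of LPS (16.8%), and Cd74 at 8 h of Poly(I:C) (10.4%). In RelA-TA-KI cells it was H2-DMa at 8 h of LPS (16.7%), Ciita at 3 h (7.42%) and Cd74 at 8 h of Poly(I:C) (15.1%). For H2-DMa at 8 h of LPS that size rested largely on the scaling of the libraries in both genotypes. These counts compare single libraries, and 2 to 4 of the 7 members had enough reads in a given condition.

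The factors that build the class II platform and feed Ciita were read from a list of 24 genes, 21 of them tested after TNF. In WT at 8 h 10 rose and none fell (list median 0.63, all genes -0.01), and in RelA-TA-KI 8 rose and 1 fell (median 0.37, all genes -0.02). Over all genes 12.0% rose in WT, and in RelA-TA-KI 21.6% rose and 20.5% fell. With the block within genotype the list counts were 12 and 0, and 12 and 5, where 2391 and 2143, and 3791 and 3584, of all 13843 genes were called. The difference of responses was lower for 3, Irf1, Rfx5 and Ifngr2, at both 3 and 8 h (0.73% and 3.42% of all genes), and for 7 at both times with the block (524 and 1359 of all 13843 genes). Rfx5, the DNA-binding subunit of RFX, rose in WT from 29.3 to 45.4 CPM at 8 h (log2 0.63, SE 0.08, adjusted p = 9.5e-05) and fell in RelA-TA-KI from 30.2 to 23.3 CPM (-0.38, SE 0.09, adjusted p = 0.0031). Its difference of responses was -0.56 (SE 0.12, adjusted p = 0.04) at 3 h, called in 5 of 14 alternatives, and -1.01 (SE 0.12, adjusted p = 0.00035 by edgeR) at 8 h, called in 14 of 14. The other subunits gave -0.03 (Rfxap, SE 0.18) and -0.06 (Rfxank, SE 0.29) in WT, and -0.37 (SE 0.17) and -0.65 (SE 0.29) in RelA-TA-KI, none passing the test.

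Ifngr2, a chain of the interferon gamma receptor, rose in WT (log2 1.16, SE 0.06, adjusted p = 1.4e-08) and in RelA-TA-KI (0.76, SE 0.06, adjusted p = 4.5e-07). Its responses differed by -0.55 at 3 h (SE 0.09, adjusted p = 0.006) and by -0.40 at 8 h (SE 0.09, adjusted p = 0.015). The call at 8 h was lost in 4 of 14 alternatives, among them those without RelA-TA-KI untreated replicate 2 and without WT 8 h replicate 2. Nlrc5, the relative of Ciita that serves MHC class I genes, rose in both genotypes, by 2.09 (SE 0.35) and 0.97 (SE 0.36), with a difference of -1.12 (SE 0.50, adjusted p = 0.20).

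**Figure D5:**
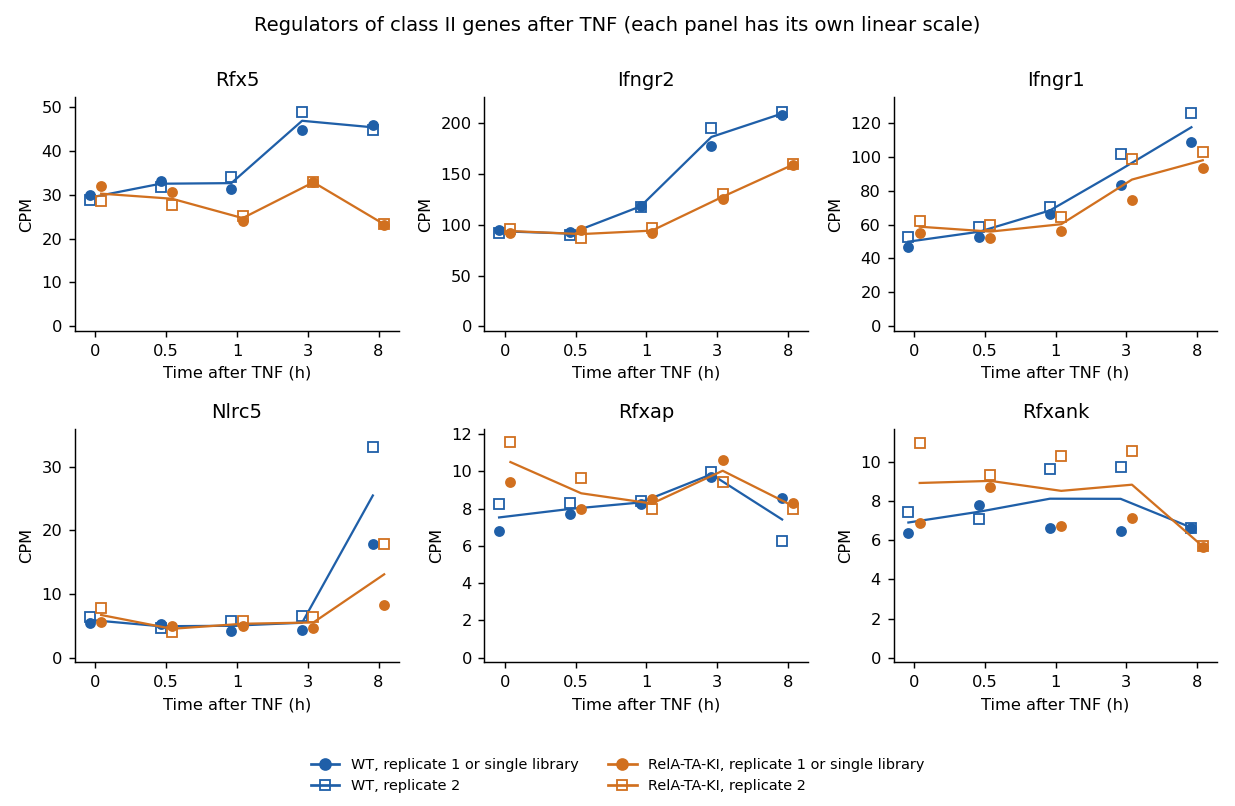
Rfx5, Ifngr2, Ifngr1, Nlrc5, Rfxap and Rfxank after TNF, in CPM by time; points are libraries, lines join means and colour marks genotype. Rfx5 separates at 8 h (45.4 CPM in WT, 23.3 in RelA-TA-KI), and Ifngr1 stands at 117 CPM in WT against 97.9 in RelA-TA-KI at that time.

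Other inputs of the list that rose in WT at 8 h included Ifngr1 (1.23, SE 0.14), the kinases Jak2 (1.75, SE 0.23) and Jak1 (0.28, SE 0.08), the feedback inhibitor Socs1 (1.37, SE 0.30) and the repressor and activator Irf2 (0.80, SE 0.16). Ifngr1 (0.74) and Jak2 (0.84) were called higher in RelA-TA-KI too. Prdm1, which encodes a repressor of Ciita in plasma cells, rose in RelA-TA-KI at 8 h (2.34, SE 0.48, adjusted p = 0.0015), as did the NF-Y subunit gene Nfya (0.38, SE 0.09). Atf1 was called there too (0.28, SE 0.10, adjusted p = 0.032) but in only 3 of 10 fits. None of Prdm1, Nfya and Atf1 was called in WT at 8 h. The difference of responses at 8 h was called for no gene named in this paragraph. The macrophage and B cell factors Spi1 and Irf8 were read in all groups and called in neither genotype at 8 h of TNF (Spi1 0.72, SE 0.45, and 0.98, SE 0.42; Irf8 -0.15, SE 0.39, and -0.38, SE 0.37).

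Shared over the LPS and Poly(I:C) conditions, 4 of 22 tested genes of that list were lower in RelA-TA-KI and 1 was higher (median -0.11, all genes -0.01). Of all 12752 genes tested, 1047 were lower and 977 higher. Lower in the list were Rfx5 (-0.23, adjusted p = 0.024), Ifngr1 (-0.38, adjusted p = 0.0044), Ifngr2 (-0.35, adjusted p = 0.018) and Creb1 (-0.18, adjusted p = 0.03), all by edgeR over 12752 genes. Of 5 alternatives, Ifngr1 and Ifngr2 were called in 5, Rfx5 in 3 and Creb1 in 2. Each condition had 1 library per genotype, so these p-values measure the spread of the difference over conditions. The genotypes of that series also differed in Xist and Ddx3y, and a difference of sex or culture cannot be told apart from one of genotype. Higher in the list was Ifnb1, the gene of interferon beta (1.28, adjusted p = 0.0084 by edgeR), called in 4 of 4 alternatives. Ifnb1 was at 0 counts in 21 of all 38 libraries and had 32.4 CPM in WT against 75.6 CPM in RelA-TA-KI at 8 h of Poly(I:C). At that time Nlrc5 stood at 305 CPM in WT against 464 CPM.

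Of 19 further genes of the class II route (proteases, editors and costimulators) 14 were tested. In WT at 8 h of TNF 3 rose: Cd40, the receptor of T cell help (2.67, SE 0.27, adjusted p = 8.6e-06), Cd274, encoding PD-L1 (2.37, SE 0.36, adjusted p = 0.00028), and Sppl2a, the protease that clears the last membrane stub of the invariant chain (0.63, SE 0.13, adjusted p = 0.003). In RelA-TA-KI Cd274 (3.07) and Cd40 (2.80) rose, and Ifi30, a lysosomal thiol reductase (-0.24), and March8, a ubiquitin ligase (-0.24), fell. The list medians were 0.06 in WT and 0.30 in RelA-TA-KI, against -0.01 and -0.02 over all genes. The difference of responses was called for 0 of the 14 at 8 h by edgeR, with 1 at an unadjusted p under 0.05 and 0 by DESeq2. With the block within genotype the WT count at 8 h was 6, the RelA-TA-KI count 12 and the count for the difference 4, beside 4534, 7375 and 2941 of all 13843 genes.

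Among the partners of Cd74 as a MIF receptor, 4 of 5 were tested. Cd44, which signals with surface Cd74, rose at 8 h of TNF by 1.14 in WT and by 2.43 in RelA-TA-KI (451 to 991 and 279 to 1508 CPM). The responses of Cd44 differed by 1.30 (SE 0.32, adjusted p = 0.027), opposite in sign to that of Cd74, and was called in 8 of 14 alternatives. Ackr3, a MIF-binding chemokine receptor, fell in both (-0.95 and -1.45). With the block within genotype the difference was called for 3 of these 4 genes at 8 h, and for 2941 of all 13843.

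The genes whose log2 CPM followed Cd74 most closely over the 20 TNF libraries, out of 12025 compared, were C3 (Pearson r 0.926), Gopc (0.918), Gbp6 (0.915), Pnkd (0.907) and Kcnf1 (0.905). C3, the central complement component, had 5.03 CPM in untreated WT, 203 CPM at 8 h (SD 79.8, n = 2) and 6.00 CPM in RelA-TA-KI at 8 h. Gbp6, an interferon-inducible GTPase, had 1.09, 34.0 and 2.75 CPM in the same groups. For Ciita they were Npas2 (0.852), Rhof (0.847), Katna1 (0.845), Cyp26b1 (0.836) and Cilp2 (0.835), and for H2-Ab1 Mto1 (0.755), C3 (0.730), Abcc4 (0.729), Saa3 (0.713) and Gm49342 (0.709). The libraries share times and genotypes, and the labels do not say whether they share cultures. By Spearman's rho 0 of these 5 were again in the top 5 for Cd74, 0 for Ciita and 2 for H2-Ab1, so the names are a description of these libraries.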

How the data were processed

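Messenger RNA was sequenced (poly(A)-selected, stranded kit, single-end) in 38 libraries of WT and RelA-TA-KI fibroblasts. Per the submitters' processing notes, the authors used cutadapt 1.9.1, STAR, featureCounts 1.4.6 and the mm10 build; which annotation and strand setting served, and how reads mapping to several places were handled, are not given in the sources used here. The deposited values are raw read counts by gene in separate tables for the TNF series and the LPS with Poly(I:C) series, with 45706 gene identifiers each, of which 45143 were given a symbol. All columns were used (0 left out).

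Counts were fitted with the edgeR 4.0.16 quasi-likelihood F test in R 4.3.3 (TMM scaling, filterByExpr, Benjamini-Hochberg adjustment over all genes tested, threshold 0.05). The TNF fit took all 20 libraries as 10 group means (13843 genes, 10 residual degrees of freedom, biological coefficient of variation 10.2%). The LPS and Poly(I:C) fit tested a genotype difference shared by 9 conditions (12752 genes, 8 residual degrees of freedom, 12.7%), so its spread is that of the difference over conditions. A difference of sex or culture between the libraries of the genotypes cannot be told apart from that genotype difference. Standard errors (SE) were derived from F as the size of the log2 fold over the root of F. The fit was tested on simulated counts with known changes. Levels per kb use the exon length given in the tables. Ratios of summed counts have exact 95% binomial intervals, and a group at 0 was given a floor of 3 counts; both cover counting error only. Single LPS and Poly(I:C) libraries were compared by a log2 ratio of at least 1 (prior count 2) with at least 20 counts in 1 of 2 libraries.

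The members and gene lists were chosen with earlier results of these data known. Named beyond the members were list genes called in the difference of TNF responses, genes of the 2 pathway lists called at 8 h, a set of regulators and marker genes named whatever their values (some are not reported here), and the 5 genes of highest Pearson r to Cd74, Ciita and H2-Ab1 where a gene averaged 20 counts or more. Cd209a, Flt3, Itgax, Ccr7, Zbtb46, Pax5, Col1a1, C1qa, Cd14, Msr1, Ackr3, Ifnb1, Creb1, H2-Eb2, H2-DMb2 and Dexi were named after their values were seen.

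Labels do not say whether replicate numbers mark embryos, cultures or days, so p-values measure only the spread between these samples, which may be technical. Deviations from group means of same-numbered libraries correlated at 0.161 to 0.529 (median 0.304) in all 20 pairs of groups within a genotype. Across genotypes they correlated at 0.00558 to 0.338 (median 0.212) in the 25 pairs. In WT, the Xist and Ddx3y pattern was shared by the 5 libraries of each replicate number and differed between the numbers. RelA-TA-KI replicates did not differ in that pattern. Same-numbered libraries may thus be related, more so within a genotype. The main fit took no account of this, and blocks by replicate number, common or within genotype, were run as alternatives that changed many calls. Alternatives were DESeq2 1.42.0, other size factors, no filter on low counts, fits of the contrast's groups alone, replicate blocks and leaving out single libraries; alternatives for the gene lists were added after seeing the data. Promoter sequences are RefSeq's (GRCm38.p6).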

Additional observations from a re-analysis of the deposited data

Results flagged for a closer look

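The genes below other than Cd74 responded to TNF differently in the genotypes by an edgeR test of the difference itself (RelA-TA-KI response minus WT response, log2 scale, Benjamini-Hochberg over 13843 genes). Their lists were chosen with earlier results of these data known, and they are listed here because they were called. These tests are thus no independent support. Cd74 is given as a description only, since it was chosen from these same counts and its WT libraries at 3 and 8 h held the highest counts behind its passing the filter. Its value at 8 h was -4.30. For the Ciita input Irf1 the tested difference was -1.86 at 3 h and -2.25 at 8 h. Rfx5, of the RFX complex, gave -0.56 and -1.01, and the receptor chain Ifngr2 gave -0.55 and -0.40. Cd44, the signalling partner of Cd74, differed the other way at 8 h, by 1.30 (SE 0.32). Of 10 fibroblast markers tested, Twist1 and Prrx1 were called at 8 h, at -0.65 and -0.44, where 3.42% of all genes were lower. The list median was -0.30 for the difference of responses and 0.17 for the direct genotype difference at 8 h. No explanation of these differences was tested.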

How the results depend on the processing

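No called value reversed under any alternative run. The Cd74 response of WT at 8 h of TNF ran from 3.60 to 4.48 over 10 alternatives and passed in 10; at 3 h it ran from 2.04 to 2.93 and passed in 8. The difference of responses for Cd74 at 3 h ran from -4.00 to -2.98 and passed in 3 of 14 (no filter, and each replicate block). The shared difference with LPS and Poly(I:C) ran from -2.58 to -1.23 and passed in 5 of 5. Cd74 was chosen from these same counts, so these passes show how the fits vary and are no independent support.

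Counts of all genes called depended more on the fit. Without the filter on low counts, the difference of responses had 696 genes at 3 h (129 as reported) and 1769 at 8 h (951), and the untreated difference 740 (1). With only the contrast's groups the counts were 593 and 1400 for WT at 3 and 8 h (2171 and 2882), 44 and 384 for the differences, and 0 for untreated cells, where DESeq2 gave 3. A replicate block gave 3556 for WT at 3 h, 4627 for RelA-TA-KI at 3 h (2631), 774 and 2640 for the differences and 958 for untreated cells, and the block within genotype gave 3849 and 4534 for WT, 4889 for RelA-TA-KI at 3 h, and 1035 and 2941 for the differences; beyond those given above, it changed no call of a member. Leaving out 1 library gave 1067 to 1653 and 1764 to 2278 for WT at 3 and 8 h, 880 to 1619 and 4037 to 4678 (5826) for RelA-TA-KI, 50 to 180 and 338 to 975 for the differences, and 0 to 2 for untreated cells. A group left with 1 library is assumed to vary like the others. The shared difference (2024) had 909 genes over 3 and 8 h alone and 3054 over the untreated, 0.5 and 1 h conditions. The causes were not tested. Among single genes, list counts and ratios, 1286 alternative values kept their side of the threshold, 104 lost it, 4 gained it and 95 counts moved. Depth limits Ciita and the classical chains, most of whose libraries held under 20 reads.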
